A study of Mus musculus with 4 samples.

Results

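Whole retinas in which diphtheria toxin fragment A (DTA) had been switched on were compared with control retinas at day 5 after the injury, gene by gene. The comparison takes every gene symbol with an expression value in both day 5 libraries, which were 22541 of the 22558 symbols in the series. The DTA mice carried Msi1-CreERT2/+ and R26R-DTA/+, and the control mice carried R26R-DTA/+ with no Cre allele (+/+). All were about 8 weeks old and of a mixed C57BL/6 and 129 background. Each of the 2 groups is 1 library, and how many mice gave RNA to it is not stated in the labels. A control library from day 1, of the same control genotype, serves only to show how far 2 control retinas lay apart.

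DTA is the catalytic part of diphtheria toxin, an enzyme that modifies elongation factor 2 and so blocks protein synthesis in the cell that makes it. Here the cells that make it are those in which CreERT2, expressed from the Msi1 gene, has recombined the R26R-DTA allele, so the pattern of Msi1 expression limits which cells are hit directly. Msi1 encodes the RNA-binding protein Musashi 1. Photoreceptors, the rods and cones, are the most numerous cells of the mouse retina and turn light into a change of membrane current through the phototransduction cascade. Müller glia span the retina, clear glutamate and take on a reactive state when photoreceptors are damaged, and microglia are its resident macrophages.

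The unit is FPKM, which counts sequenced fragments per kilobase of a transcript, relative to the size of the library. Of a pair of values the first is the day 5 control and the second is day 5 DTA; of 3 values the day 1 control comes first. A difference is DTA minus day 5 control of log2(FPKM + 1). There is no spread between samples to test against, so calls rest on size alone. A called gene has a difference of 1 or more in size, reaches the floor of 5 FPKM in the control or in DTA, and differs by more than it did between the day 5 and day 1 controls. The depth, estimated from the value that 1 fragment appears to have in low genes (FPKM times length), was 35.5 M fragments for the control and 29.5 M for DTA, and the half-width of an interval was typically 6.397% and 6.84% of the FPKM (medians of genes at the floor). For some genes, Gnat1 among them, the deposited upper bound lies below the FPKM itself, so single bounds are not printed. These widths describe the precision within a library and hold no variation between mice. Between the 2 controls 240 of 9321 genes (2.57%) passed the same size and floor. Most of these were small RNA genes, and without them 11 were higher and 69 lower at day 5. Lens, pigment epithelium and sex-linked transcripts were among the differences between the 2 controls: Xist was at 0.00596, 53.7 and 60.4 FPKM. The 2 day 5 libraries are thus alike in these sex-linked transcripts, and the day 1 control is not.

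Of 9895 genes at 5 FPKM or more, 667 (6.74%) were higher in DTA and 175 (1.77%) were lower. Small RNA genes, told apart only by the start of their symbols, made up 93 of the higher and 42 of the lower calls. No small RNA gene is named, but counts over all genes include them unless stated otherwise; without them 574 genes were higher and 133 lower. The median difference of all genes at the floor was 0.26, and when the libraries were scaled by their median ratio, which took out a shift of 0.25, the calls were 424 higher and 254 lower in place of 667 and 175 (342 and 211 without small RNA genes). The share of calls that were higher then went from 79.2% to 62.5%. Direction went with the level of the gene in control, a value that also enters the difference and by itself favours lower calls at high levels. Without small RNA genes, among 117 genes at 200 to 1000 FPKM in control 1 was higher and 16 were lower, and of the 12 genes at 1000 FPKM or more 6 were lower. Genes under 5 FPKM in control can pass the floor only by being higher, so their share has no such reading. Counts for gene lists run over all measured members, and members under the floor in both libraries could not be called.

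**Figure D1:**
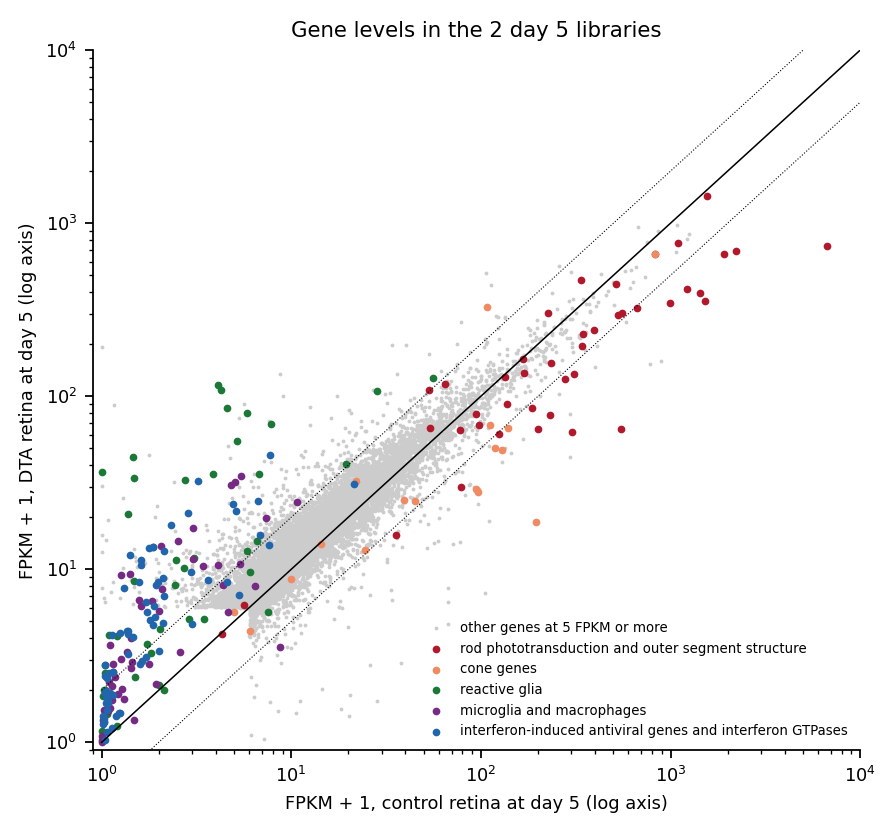
Each point is 1 gene, with its FPKM + 1 in the day 5 control (x axis, log) and in day 5 DTA (y axis, log); small RNA genes are left out, grey points are genes at 5 FPKM or more and coloured points are all measured members of the named lists. The solid line marks equal levels and the dotted lines a 2-fold ratio; most rod and outer segment genes lie at the high end below the solid line, and most interferon, reactive glia and microglia genes at the low end above it.

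Rod phototransduction starts when activated visual pigment engages transducin, which activates the phosphodiesterase PDE6; the fall in cyclic GMP closes the cyclic nucleotide gated channel. Of 20 measured genes of this cascade 11 were lower, against 1.77% of all genes at the floor, and 0 were higher. All 20 lay below 0, with a median of -1.04. The list held 5.98%, 7.401% and 2.54% of the summed FPKM without small RNA genes. Less RNA per rod and fewer rods cannot be told apart in bulk tissue.

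The transducin subunits were among the furthest apart. Gnat1, the rod alpha subunit, stood at 4490.1, 6678 and 739 FPKM. Both controls lie several-fold above DTA. Gnb1, the beta subunit, stood at 1519 and 354 FPKM, whereas Gngt1, the rod gamma subunit, stood at 554 and 300.4 and was not called. The phosphodiesterase subunits were not alike. Pde6g, the inhibitory gamma subunit, stood at 2224 and 689 FPKM (-1.69). The catalytic subunits Pde6b (528 and 295 FPKM, -0.84) and Pde6a (512 and 442, -0.21) were not called. Gngt1 (-0.88) and Pde6b missed the size rule by less than the 0.25 that median ratio scaling takes out. Their lack of a call therefore rests on the unscaled values.

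Channel and exchanger genes, which carry the current, were lower together. Cnga1, the alpha subunit of the rod channel, stood at 231 and 76.6 FPKM, and Cngb1, its beta subunit, at 310.0 and 133. Against the day 1 control, where Cngb1 stood at 239, its difference was -0.84 and no longer passed. Slc24a1, the sodium, calcium and potassium exchanger of the outer segment, stood at 275, 302 and 60.8 FPKM.

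Genes that end the light response were mixed. Sag, rod arrestin, stood at 1559 and 1444 FPKM, Grk1, the opsin kinase, at 343 and 227, and Rgs9, which speeds GTP hydrolysis on transducin, at 232 and 154. None of these was called. Called lower on the recovery side were Rcvrn, the calcium sensor recoverin (994 and 345 FPKM), Guca1b (666 and 323), an activator of guanylate cyclase, the cyclase gene Gucy2f (34.7 and 14.7), Rgs9bp, which anchors Rgs9 (124 and 59.4), and Pdc, phosducin (1221 and 417). Gucy2e, the other cyclase gene, had 96.3 and 67.2 FPKM, a difference of -0.51. Differences within the cascade ran from -3.17 (Gnat1) to -0.11 (Sag).

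Outer segment structure and maintenance genes were split. Of 22 measured, 7 were lower and 1 higher, with a median of -0.29. The disc rim proteins Prph2 (1910 and 661 FPKM) and Rom1 (1426 and 394) were lower. So were Reep6, a membrane trafficking protein of rods (549 and 64.1 FPKM), Rdh12, a photoreceptor retinol dehydrogenase (198 and 64.01), and Fscn2, an actin bundler of photoreceptors (77.5 and 28.7). Cdhr1 (-1.15) and Abca4 (-1.13) completed the 7 and missed the size rule against the day 1 control (-0.93 and -0.86). On the other side stood Impg2, a proteoglycan of the matrix around photoreceptors, at 52.1 and 107 FPKM (1.03), which no longer passed at 0.79 under median ratio scaling. Aipl1, a chaperone that PDE6 needs, stood at 336 and 469.6 FPKM, and Rp1, a microtubule protein of the outer segment, at 225 and 301; neither was called.

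Ribbon synapse genes of photoreceptors gave 2 lower calls among 21 (median -0.13, or -0.36 under median ratio scaling). These were Cacna1f, the calcium channel of the terminal (46.8 and 18.1 FPKM), and Slc17a7, the vesicular glutamate transporter (584 and 266, -0.93 against the day 1 control). Ctbp2, whose gene also encodes the ribbon protein RIBEYE, stood at 62.2 and 111 FPKM and was not called. Cilium and ciliary transport genes had a median of 0.20 over 28 members, which turned to -0.0069 under median ratio scaling. Rpgrip1, a connecting cilium scaffold, was lower (80.7 and 39.6 FPKM), and Ift57, an intraflagellar transport subunit, was higher (5.68 and 28.8, with 7.52 in the day 1 control).

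Transcription factors that specify rods were among the lowest against control. Nrl, the factor that directs the rod fate (chromosome 14, 56137815 to 56143802 in mm9), stood at 783, 779.9 and 153 FPKM. Its target Nr2e3, which represses cone genes in rods, stood at 295 and 43.5 FPKM, Mef2c at 19.0 and 3.66, and Esrrb at 128 and 40.9. Crx (330.2 and 219 FPKM, -0.59) and Otx2 (97.9 and 70.6, -0.47), homeobox factors of rods and cones alike, were not called. Neurod1, a basic helix-loop-helix factor of photoreceptors and amacrine cells, was higher at 132 and 288 FPKM, but at 0.87 under median ratio scaling it no longer passed. Over the 15 factors 4 were lower and 1 higher, with a median of -0.47.

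Of 17 cone genes 6 were lower and 1 was higher (median -0.72). The opsins Opn1sw (195 and 17.9 FPKM) and Opn1mw (95.5 and 26.8) led the lower ones. The cone transducin subunits went apart: Gnat2, alpha, stood at 92.8 and 28.1 FPKM and Gngt2, gamma, at 117 and 49.2, both lower, whereas Gnb3, beta, stood at 104, 107 and 328 FPKM. Gnb3 is also expressed in ON bipolar cells. Kcnv2, a potassium channel subunit of photoreceptors, was lower too (138 and 64.8 FPKM; -0.83 against the day 1 control). Pde6h, the inhibitory subunit of the cone phosphodiesterase, stood at 129 and 48.01 FPKM, and its catalytic partner Pde6c at 20.99 and 31.2, a difference of 0.55 that was not called. On unscaled values the inhibitory subunit was lower in rods and cones alike and no catalytic one was called, with Pde6b (-0.84) near the size rule.

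**Figure D2:**
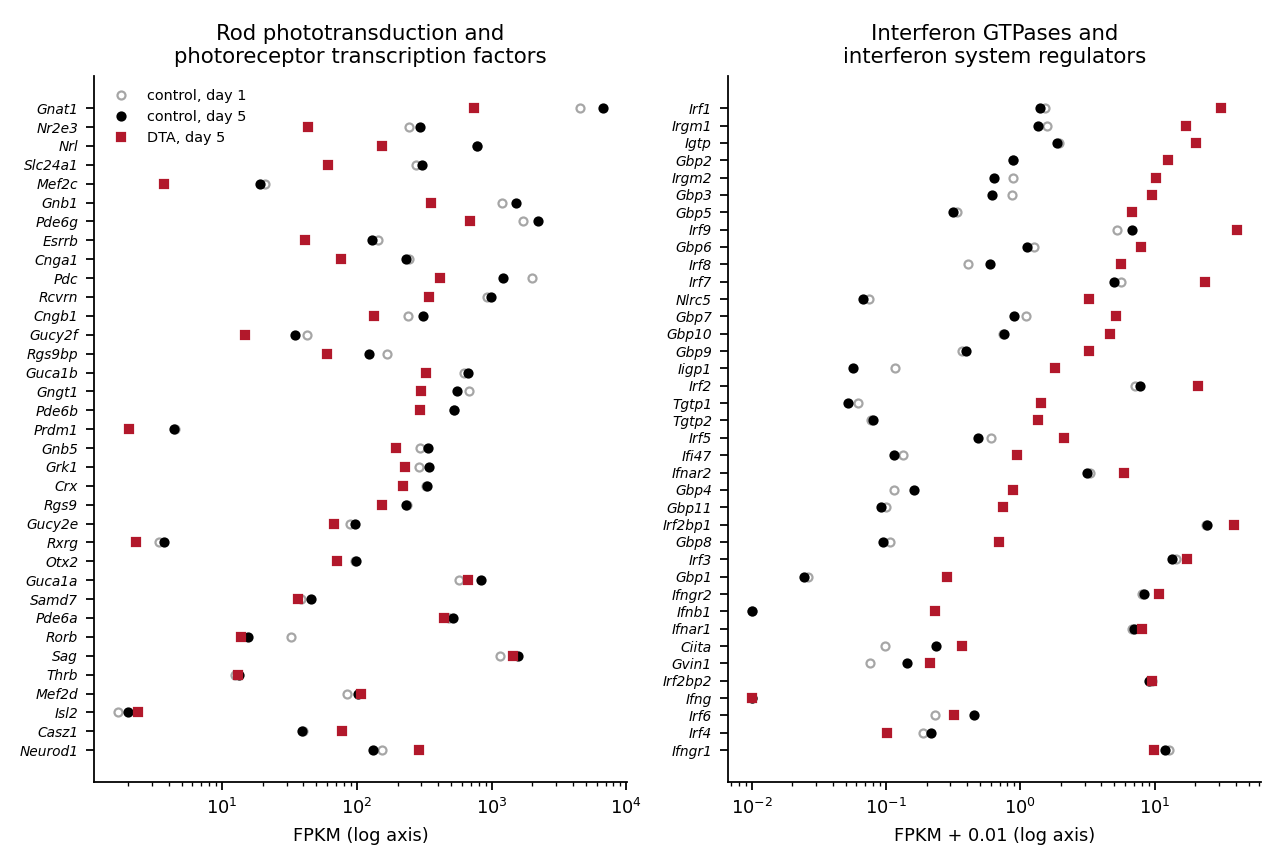
FPKM of each gene (x axis, log; 0.01 is added in the right panel so that values of 0 can be drawn) in the day 1 control (open circles), the day 5 control (black) and day 5 DTA (red squares), 1 library each, sorted by difference. The 2 controls lie close together for most genes, with Gnat1 at 6678 against 739 at the top left and Irf1 at 1.40 against 30.9 at the top right.

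Abundant genes outside all lists were also lower; these were picked after their values were seen, from the called genes outside the lists at 100 FPKM or more in control. Fam57b stood at 411 and 195 FPKM, and Vtn, the adhesive glycoprotein vitronectin, at 397 and 146. Impdh1, the guanine nucleotide synthesis enzyme that predominates in photoreceptors, stood at 258 and 102 FPKM, and the potassium channel gene Kcnj14 at 203 and 99.4. Vopp1 (-1.61), Rabgef1 (-2.53) and Ip6k2 (-1.09) were lower too. Among the 25 largest lower differences, those outside photoreceptor, glial and lens lists were Ccdc24 (66.5 and 5.43 FPKM), Pisd-ps1, Hdc (the histamine-forming decarboxylase, 10.1 and 0.734), Rabgef1, the beta-galactosidase-like genes Glb1l3 and Glb1l2, the linker histone gene Hist1h1c (69.9 and 13.04), Agxt2l1 and Ppap2c.

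The CRX motif TAATCC, the site of a photoreceptor homeobox factor, was searched on both strands of promoters running from 250 bases before to 50 bases after a transcription start (RefSeq, build GRCm38.p6; 6884 of 9620 genes at the floor matched by symbol). It was found in 15 of 91 promoters of genes called lower (16.5%), 6.699% of those called higher and 5.55% of all at the floor. Among the 25 largest higher genes 4 of 20 matched promoters held it as well. Of the called rod phototransduction genes 3 of 6 matched held it, and the pair printed here has 2 copies each. The windows run from 170 bases before the start to the base before it, written 5′ to 3′ on the gene's strand with the motif in capitals; a match describes letters and not a bound site. Cngb1 (minus strand, chr8:95306586-95306755) holds it -58 and -25 bases from the start, and Gucy2f (minus strand, chrX:142196937-142197106) -84 and -59, the first in reverse.
Cngb1: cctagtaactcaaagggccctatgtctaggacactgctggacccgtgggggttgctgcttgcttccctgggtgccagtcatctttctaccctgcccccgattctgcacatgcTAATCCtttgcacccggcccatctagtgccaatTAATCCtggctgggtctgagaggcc
Gucy2f: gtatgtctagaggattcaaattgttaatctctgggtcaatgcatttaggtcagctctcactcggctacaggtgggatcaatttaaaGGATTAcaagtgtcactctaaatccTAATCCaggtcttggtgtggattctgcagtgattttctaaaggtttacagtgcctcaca

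**Figure D3:**
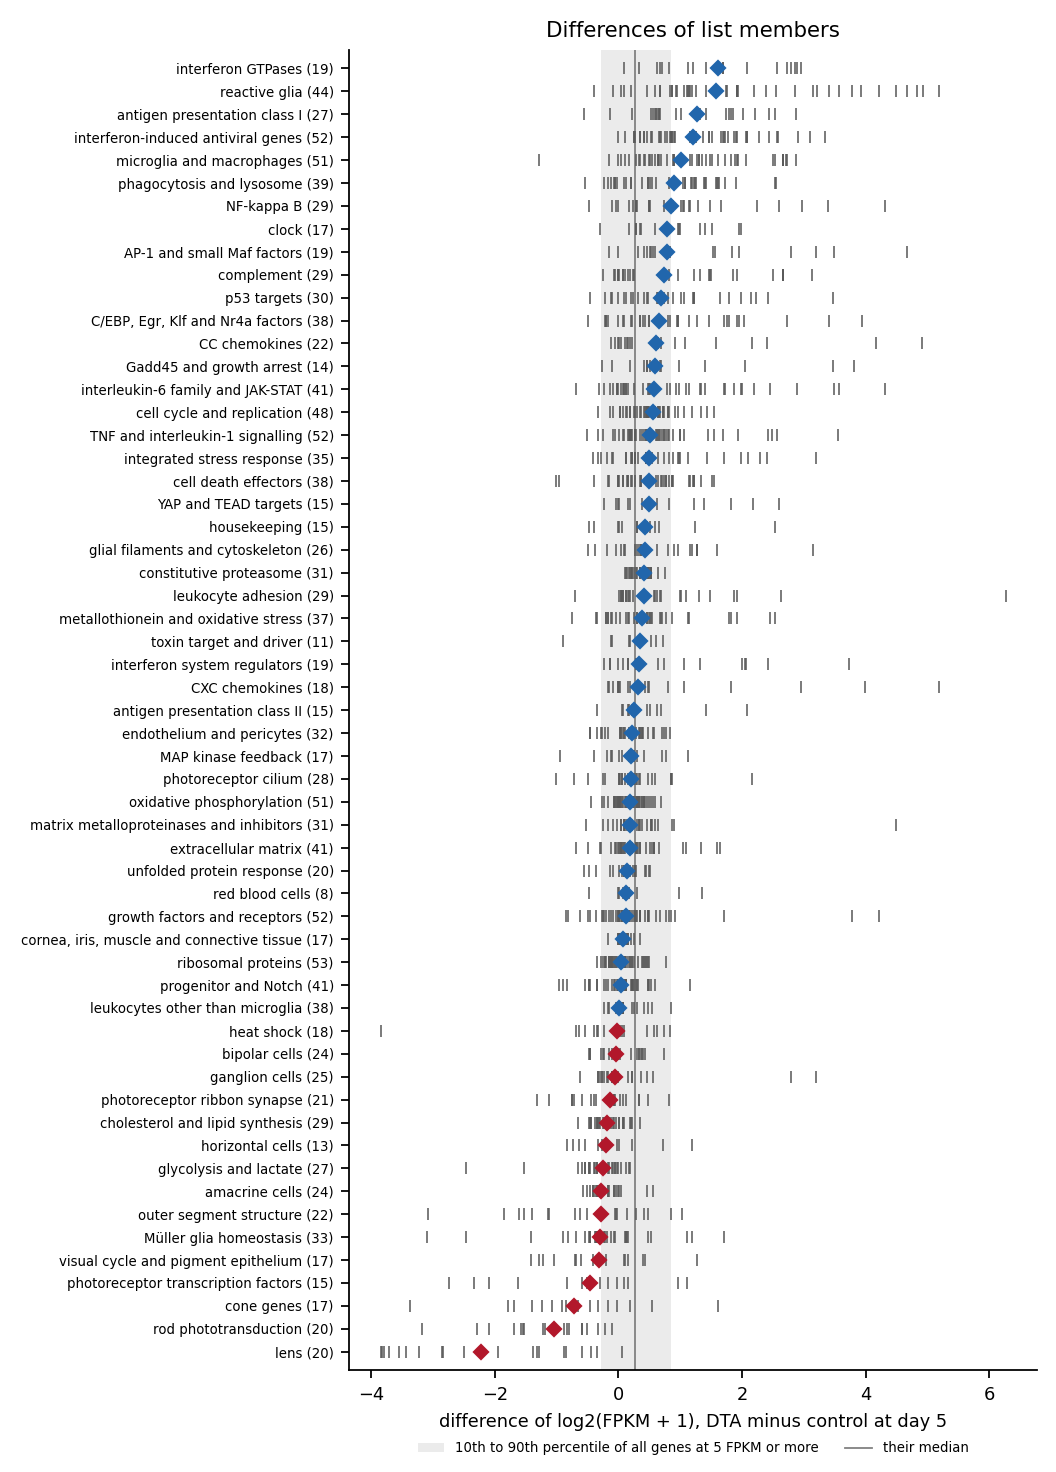
Each tick is 1 measured member of a list (number in parentheses), placed at its difference of log2(FPKM + 1), DTA minus control at day 5, for the 57 lists with at least 8 measured members. Diamonds are list medians, red below 0 and blue at or above 0, the grey band is the 10th to 90th percentile of all genes at 5 FPKM or more and the line their median of 0.26; rod phototransduction and lens stand furthest to the left and interferon GTPases and reactive glia furthest to the right.

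Müller glia genes of the resting state gave 3 lower and 3 higher calls among 33. Glul, glutamine synthetase (chromosome 1, 155747075 to 155756844 in mm9), which detoxifies the glutamate that Müller cells take up, stood at 1044, 888 and 159 FPKM. Rlbp1, the retinaldehyde binding protein, stood at 133 and 49.3 FPKM, and Spc25, a kinetochore gene used as a Müller marker, at 65.8 and 6.803. The glutamate transporter Slc1a3 (38.3 and 33.4 FPKM) and the potassium channel Kcnj10 (14.99 and 11.4) were not called. Aqp4 (-0.81) and Abca8a (-0.89) were not called either, but passed as lower at -1.04 and -1.13 under median ratio scaling. Crym, a thyroid hormone binding protein, was higher at 30.3 and 101 FPKM, as were Id3 (1.11) and Vim (1.20). Under median ratio scaling Id3 (0.89) and Vim (0.96) no longer passed. The list median was -0.30, or -0.55 under median ratio scaling, and that between the controls was -0.41.

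Reactive glia genes, some of which also stand in other lists (Cxcl10, Gbp2, Psmb8, C4b and Lgals3), were higher in 24 of 44 cases (median 1.58, 42 above 0), and their summed level was 208, 179 and 1144 FPKM. Gfap, the filament protein of reactive astrocytes and Müller glia, stood at 4.66, 6.85 and 68.5 FPKM. Secreted products of the list included Lcn2, lipocalin 2, at 3.099 and 116 FPKM, and Serpina3n, a protease inhibitor with close copies, at 3.27 and 107. Ptx3, a pentraxin, stood at 0.371 and 19.8 FPKM, A2m, the protease inhibitor alpha 2 macroglobulin, at 2.86 and 34.7, Cp, the ferroxidase ceruloplasmin, at 27.4 and 106, and Chi3l1, a chitinase-like protein, at 5.77 and 34.6. Saa3, serum amyloid A3, which is not in the list, reached 11.6 FPKM in DTA, and both controls list it at 0. Osmr, the oncostatin M receptor, stood at 1.48 and 10.4 FPKM and Cd44, a hyaluronan receptor, at 1.71 and 9.24. Members without a call included Hspb1 (-0.40), Emp1 (-0.087) and Tm4sf1 (0.10), and the prostaglandin synthase Ptgs2 reached only 1.001 FPKM.

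Cytoskeletal genes were higher in 6 of 26 cases (median 0.43). Besides Gfap these were Vim, vimentin (54.8 and 127 FPKM, 73.6 in the day 1 control), the thymosin Tmsb4x (119.5 and 291), Tagln2 (8.47 and 27.6), the beta tubulin Tubb6 (3.104 and 8.94) and Msn, moesin (6.79 and 17.8). Set against the day 1 control, Vim (0.78) and Tmsb4x (0.88) missed the size rule, and Vim (0.96) also missed it when scaled by median ratio. Actg1 (216 and 167 FPKM) and Tmsb10 (103 and 72.8) lay below 0 without a call.

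Growth factors and their receptors gave 3 higher calls, all of them ligands, among 52 measured genes (median 0.12). Only 17 of the 52 were at the floor, where 6.74% of all genes were higher. Edn2, endothelin 2 (chromosome 4, 119834029 to 119839965 in mm9), which stressed photoreceptors are known to make, stood at 1.24, 4.88 and 79.4 FPKM. Its receptor gene Ednrb, expressed by Müller glia, stood at 1.97 and 1.96 FPKM, and the processing enzyme gene Ece1 at 10.5 and 9.05. Fgf2 (chromosome 3, 37247575 to 37303752) stood at 3.57 and 84.0 FPKM, while its receptor gene Fgfr1 had 5.34 and 7.04 and Fgf1 had 17.2 and 9.11. Nudt6 (chromosome 3, 37303906 to 37318512), which is transcribed from the strand opposite to Fgf2 and overlaps it, stood at 4.75 and 78.9 FPKM, and the sources used here do not say that fragments were counted by strand. Btc, betacellulin, a ligand of the EGF receptor, stood at 3.68 and 14.3 FPKM against 2.31 and 2.43 for Egfr.

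Interleukin-6 family cytokines signal through the shared receptor Il6st (gp130), JAK kinases and STAT factors, with Socs3 as feedback inhibitor. Of 41 measured genes, 27 of them at the floor, 13 were higher and 0 lower (median 0.58). Members under 5 FPKM in control could not be called lower. Of the ligands, Lif stood at 0.248 and 5.87 FPKM, Cntf, ciliary neurotrophic factor, at 2.698 and 13.6, Il6 was listed at 0 and 3.01, and Osm at 0 and 0.1103. Il6st stood at 17.9 and 36.3 FPKM (0.98, not called), and Lifr at 8.79 and 10.7. Among the kinases Jak3 was higher (0.514 and 10.2 FPKM) and Jak1 was not called (25.7 and 27.2). Feedback genes were higher at 4 places, Socs3 (1.75 and 31.8 FPKM), Cish (4.04 and 15.6), Socs2 (a difference of 1.14) and the phosphatase Ptpn1 (9.901 and 34.7). Socs7 (-0.024) and Socs5 (-0.016) lay near 0. Stat3 had no usable estimate in the DTA library, and Stat2 stood at 8.25 and 32.7 FPKM.

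NF-kappa B genes were higher in 11 of 29 cases (median 0.85). The noncanonical branch, which acts through RelB and p52, was among them. Relb had 0.907 and 18.98 FPKM, Nfkb2 had 0.499 and 10.8, and Map3k14, the kinase NIK, had 4.33 and 15.8. Bcl3, a nuclear partner of p50 and p52, stood at 0.297 and 24.9 FPKM. In the canonical branch Rela stood at 9.78 and 23.1 FPKM and Nfkb1 at 4.504 and 10.5, and the inhibitor genes Nfkbia (11.9 and 30.3) and Nfkbie (1.27 and 9.76) were higher as well. Tnfaip3, the inhibitor A20, stood at 91.6 and 65.5 FPKM without a call, and the kinase subunits Ikbkb (0.24), Chuk (0.28) and Ikbkg (0.17) lay near the median of genes at the floor, 0.26.

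Of 52 TNF and interleukin-1 genes 6 were higher, namely 3 receptors, 1 adaptor, the kinase Ripk1 and Csf1. The ligands Tnf (0 and 0.553 FPKM), Il1b (0.0227 and 0.195) and Il1a (0.173 and 0.494) stayed under 1 FPKM. Tnfrsf12a, the receptor of TWEAK, stood at 6.21 and 41.5 FPKM, Tnfrsf1a, the main TNF receptor, at 3.12 and 10.3, Fas at 0.477 and 6.93, and the adaptor Myd88 at 3.84 and 9.13. Csf1, the growth factor of macrophages, stood at 0.9698 and 22.3 FPKM. Tlr2, a receptor for bacterial and endogenous lipoproteins, reached 4.97 FPKM from 0.0673, just under the floor of 5.

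Immediate early and stress-induced transcription factors were higher in 2 lists. Of 19 AP-1 and small Maf factors 7 were higher (median 0.78). Junb stood at 8.03 and 99.97 FPKM, Jun at 11.5 and 85.6, Atf3 at 3.76 and 42.7, Maff at 0.783 and 44.6 and Fosb at 1.16 and 7.33. Fos stood at 28.1, 12.4 and 38.6 FPKM, so its call ended against the day 1 control (0.45). Of 38 C/EBP, Egr, Klf and Nr4a factors 10 were higher. Cebpd stood at 4.16 and 53.9 FPKM, Cebpb at 1.38 and 6.78, and Sbno2, a corepressor induced by STAT3, at 5.16 and 20.4. Egr1 stood at 36.04, 7.75 and 133 FPKM, and its difference against the day 1 control (1.85) was smaller than that between the controls. Nr4a1 (a difference of 0.95), Klf9 (29.1 and 29.1 FPKM) and the kinase feedback genes Dusp1 (11.3 and 9.85) and Spry2 (20.4 and 24.4) were not called.

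STAT and NF-kappa B motifs were counted in the same promoter windows. TTCCNGGAA, the STAT motif, which reads the same on both strands, was in 16 of 418 promoters of higher genes (3.83%), in 0 of 91 of lower genes and in 1.26% of all at the floor. GGGANTTTC, a form of the NF-kappa B motif searched on both strands, was in 2.87% of higher genes, 3.297% of lower genes and 0.857% of all. Icam1 (plus strand, chr9:21015770-21015939) and Steap4 (plus strand, chr5:7960302-7960471) hold the STAT motif from -42 and -116 bases before the start. Their differences are the largest and the third largest among higher genes when small RNA genes and clone or model names are left out. Cxcl1 (plus strand, chr5:90891075-90891244), a neutrophil chemokine, holds the NF-kappa B motif from -71. These promoters are shown because Icam1 and Steap4 share the same 9 letters of the motif, and Cxcl1 as a chemokine gene that holds the NF-kappa B motif. Cxcl10, with a larger difference than Cxcl1, has no match to it. The CRX motif and TGANTCA, the AP-1 motif, were in 6.699% and 6.699% of higher genes, with 4.39% for AP-1 over all at the floor.
Icam1: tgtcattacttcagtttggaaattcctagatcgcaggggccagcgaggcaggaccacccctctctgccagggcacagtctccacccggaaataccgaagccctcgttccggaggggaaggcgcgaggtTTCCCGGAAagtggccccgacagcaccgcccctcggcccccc
Steap4: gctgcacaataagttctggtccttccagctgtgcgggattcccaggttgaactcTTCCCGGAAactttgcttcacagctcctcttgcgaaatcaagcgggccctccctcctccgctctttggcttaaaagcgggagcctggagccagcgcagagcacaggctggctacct
Cxcl1: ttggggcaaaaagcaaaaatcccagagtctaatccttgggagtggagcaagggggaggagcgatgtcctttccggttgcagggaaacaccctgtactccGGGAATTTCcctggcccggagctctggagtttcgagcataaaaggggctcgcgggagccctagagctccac

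Interferon signalling is carried by receptors, STAT factors with Irf9, and a large set of induced genes. The interferon genes were at or near 0: Ifng was listed at 0 in all 3 libraries and Ifnb1 at 0 and 0.221 FPKM. The receptor genes Ifnar1 (7.04 and 7.97 FPKM), Ifngr1 (11.9 and 9.88) and Ifngr2 (8.34 and 10.7) were not called. Regulators were higher in 5 of 19 cases, all of them interferon regulatory factors: Irf1 (1.40 and 30.9 FPKM, chromosome 11, 53583516 to 53591876 in mm9), Irf9 (6.803 and 40.6), Irf7 (4.92 and 23.6), Irf2 (7.76 and 20.9) and Irf8 (0.583 and 5.62), the last a factor of macrophages and microglia. Irf3 stood at 13.4 and 17.3 FPKM and was not called.

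Of 52 antiviral genes 16 were higher and 0 lower, with a median of 1.21 and 51 above 0. Only 20 of the 52 were at the floor, where 6.74% of all genes were higher. Apart from Ifitm3, the called genes named here were under 5 FPKM in control and could not be called lower. Ifitm3, which blocks viral entry, stood at 6.74 and 45.04 FPKM, Bst2, tetherin, at 2.22 and 31.5, and Oasl2 at 3.93 and 22.8. Ifit1 and Ifit3, which bind viral RNA or its partner proteins, stood at 0.777 and 12.3, and 4.14 and 20.8 FPKM. The RNA sensors Ddx58 (RIG-I, 0.9403 and 7.12 FPKM) and Ifih1 (MDA5, 0.7104 and 5.503) were higher. Usp18, which ends the interferon signal, stood at 0.569 and 7.47 FPKM and Isg15 at 1.13 and 11.7. Several known interferon targets stayed low: Mx1 reached 0.411 FPKM, Oas2 0.145, Ifi44 0.687 and the chemokine gene Cxcl9 0.0238.

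Interferon-inducible GTPases attack the vacuoles of intracellular microbes. Of 19 measured 8 were higher and all 19 lay above 0, with a median of 1.61 and a summed level of 10.6, 9.44 and 105 FPKM. Those 8 were the only members at the floor and reached it in DTA alone, so no member could be called lower. The immunity-related GTPases Igtp, Irgm1 and Irgm2 stood at 1.85 and 20.2, 1.33 and 16.98, and 0.623 and 10.3 FPKM. Among the guanylate-binding proteins Gbp2 stood at 0.867 and 12.5, Gbp3 at 0.606 and 9.59, Gbp5 at 0.306 and 6.78, Gbp6 at 1.12 and 7.94 and Gbp7 at 0.879 and 5.103. Members of this family are close copies, so a fragment may be split between them. Gbp7 was under the floor in median ratio scaling, with a difference of 1.53.

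Their promoters share a motif. GAAANNGAA, the core of the interferon-stimulated response element, searched on both strands, was in all 7 promoters matched for the called GTPases and in 9 of 14 for the called antiviral genes. It was in 10.3% of promoters of all higher genes, 9.89% of lower genes, 6.58% of all at the floor and 8.57% of all 27025 promoters in the table. The share of higher genes holding it is thus close to that of lower genes. All 7 GTPase promoters and those of Ifit1 and Ifit3 are shown, so that the place and the letters of the shared motif can be compared. Overlapping copies, as in Gbp3, Irgm1 and Ifit1, form 1 run of capitals. The windows lie at chr3:142620493-142620662 (Gbp2), chr3:142559874-142560043 (Gbp3), chr3:142496764-142496933 (Gbp5), chr3:142530166-142530335 (Gbp7), chr11:58199386-58199555 (Igtp), chr11:58214807-58214976 (Irgm2), chr19:34640719-34640888 (Ifit1) and chr19:34583359-34583528 (Ifit3), all on the plus strand, and chr11:48871421-48871590 (Irgm1) on the minus strand.
Gbp2: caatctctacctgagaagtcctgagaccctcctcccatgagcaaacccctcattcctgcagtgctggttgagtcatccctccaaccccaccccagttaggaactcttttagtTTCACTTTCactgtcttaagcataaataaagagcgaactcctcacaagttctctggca
Gbp3: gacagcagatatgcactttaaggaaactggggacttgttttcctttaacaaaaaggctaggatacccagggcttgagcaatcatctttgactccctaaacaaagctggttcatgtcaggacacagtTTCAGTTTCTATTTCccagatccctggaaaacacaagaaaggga
Gbp5: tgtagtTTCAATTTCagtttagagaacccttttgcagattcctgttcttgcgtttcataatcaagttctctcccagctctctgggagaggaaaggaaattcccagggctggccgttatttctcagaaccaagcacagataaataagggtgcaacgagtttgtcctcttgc
Gbp7: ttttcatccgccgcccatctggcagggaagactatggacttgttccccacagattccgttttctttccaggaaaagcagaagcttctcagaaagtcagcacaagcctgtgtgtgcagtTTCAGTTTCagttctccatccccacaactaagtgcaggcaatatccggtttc
Igtp: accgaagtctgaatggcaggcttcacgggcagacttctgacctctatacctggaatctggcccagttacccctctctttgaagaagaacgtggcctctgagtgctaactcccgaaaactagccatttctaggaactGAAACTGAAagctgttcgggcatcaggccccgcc
Irgm2: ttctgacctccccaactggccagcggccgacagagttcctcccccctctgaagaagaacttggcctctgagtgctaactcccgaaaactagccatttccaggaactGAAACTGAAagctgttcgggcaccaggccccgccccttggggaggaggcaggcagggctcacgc
Irgm1: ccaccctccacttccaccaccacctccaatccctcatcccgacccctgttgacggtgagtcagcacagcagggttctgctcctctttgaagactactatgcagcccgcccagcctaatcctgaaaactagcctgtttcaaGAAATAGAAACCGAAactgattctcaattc
Ifit1: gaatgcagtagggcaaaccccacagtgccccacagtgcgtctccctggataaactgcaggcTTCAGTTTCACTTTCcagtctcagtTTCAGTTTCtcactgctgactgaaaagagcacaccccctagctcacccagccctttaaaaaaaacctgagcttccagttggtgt
Ifit3: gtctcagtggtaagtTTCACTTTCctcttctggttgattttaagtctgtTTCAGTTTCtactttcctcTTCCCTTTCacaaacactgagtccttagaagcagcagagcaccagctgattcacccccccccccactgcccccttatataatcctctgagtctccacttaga

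The first bases of the matches, counted back from the transcription start, were at -58 in Gbp2, -44 and -38 in Gbp3, -164 in Gbp5, -52 in Gbp7, -34 in Igtp, -64 in Irgm2, and -30 and -24 in Irgm1. Gbp5 is the one GTPase whose match lies more than 100 bases from the start. In Ifit1 there were 3 matches, from -109, -103 and -84, and in Ifit3 another 3, from -155, -121 and -102.

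**Figure D4:**
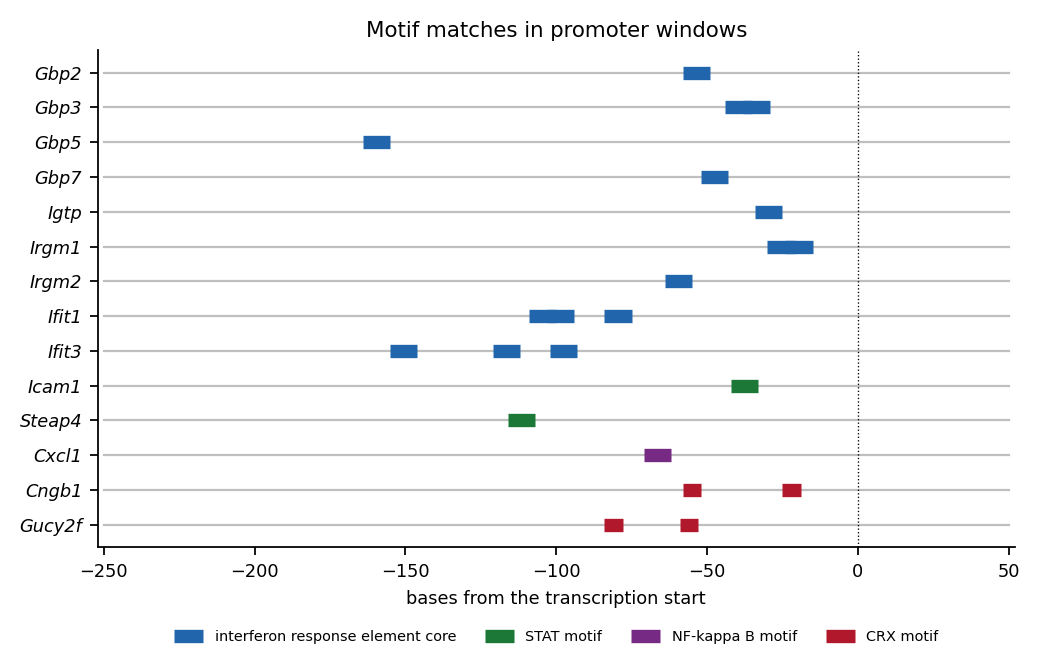
Places of the motif matches in the 14 promoters shown, in bases from the transcription start (x axis, dotted line at 0), over the searched window of 250 bases before to 50 bases after it. Boxes are coloured by motif, and only the motif named for each gene is drawn; in Gbp2, Gbp3, Gbp7, Igtp, Irgm1 and Irgm2 all matches begin within 64 bases of the start, and in Gbp5 the match begins at -164.

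Class I antigen presentation genes were higher in 12 of 27 cases (median 1.27). B2m, the light chain of class I molecules, stood at 16.4 and 99.9 FPKM, H2-D1 at 11.6 and 67.4 and H2-K1 at 10.3 and 44.95, heavy chains whose near-identical relatives make the split of fragments uncertain. The peptide transporter genes Tap1 (0.845 and 12.5 FPKM) and Tap2 (3.32 and 9.59) and the immunoproteasome subunits Psmb8 (1.43 and 7.15), Psmb9 (0.846 and 5.71) and Psmb10 (4.28 and 13.1) were higher. By contrast the constitutive proteasome gave no call in 31 genes; all 31 lay above 0, with a median of 0.42 that was 0.18 under median ratio scaling. Class II genes were near 0 in both libraries: Cd74 stood at 0.362 and 1.19 FPKM, H2-Aa at 0.0589 and 0.253 and H2-Ab1 at 1.94 and 1.33. The 2 calls in that list, Ctss and Ifi30 (3.63 and 18.6 FPKM), are lysosomal enzymes.

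Microglia and macrophage genes were higher in 17 of 51 cases and lower in 1, with 48 above 0 and a median of 1.02. The summed FPKM of the list was 82.1, 77.8 and 317, and its part in the other immune lists was not tested. Tyrobp, the DAP12 adaptor, stood at 2.04 and 16.3 FPKM, Csf1r at 2.44 and 9.49, Cx3cr1 at 0.854 and 5.53, and Cd68 at 1.52 and 13.6. Outside the list, and picked after their values were seen, the microglia gene Fcrls (0.2996 and 9.11 FPKM) and the macrophage genes Mpeg1 (0.975 and 9.87) and Cd52 (0.934 and 10.4) were higher. Fcrls marks resting microglia; other genes known for that state had no call, with P2ry12 at 0.932 and 1.17 FPKM, Tmem119 at 0.776 and 1.85 and Sall1 at 0.315 and 0.775. Ccr2, a receptor of blood monocytes, stood at 0.00788 and 0.0324 FPKM, and the perivascular macrophage gene Mrc1 at 0.00499 and 0.0857. Hcls1 was the lower one, at 7.67 and 2.57 FPKM.

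Genes of other leukocytes were low. Of 38 marker genes of T, B and natural killer cells, neutrophils, mast and dendritic cells none was called, and 37 were under 1 FPKM in DTA. Cd3e, Cd3g, Cd2, Ms4a1, Ncr1, S100a9 and Mmp8 were listed at 0 in both day 5 libraries, and 13 members in all at 0 in DTA. The summed level was 8.298 FPKM in control and 10.3 in DTA. Adhesion molecules were higher in 5 of 29 cases. Icam1 stood at 0.161, 0.164 and 88.5 FPKM, and Vcam1, the ligand of integrin alpha 4, at 3.34 and 14.9. Icam2 (0.462 and 1.33 FPKM), Pecam1 (2.17 and 2.36) and the selectin genes Sele (0.0578 in DTA) and Selp (0.0142) had no call.

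Few chemokine genes reached the floor. Of 22 CC chemokine and receptor genes only 3 were at the floor, where 6.74% of all genes were higher. The 2 called higher were Ccl2 (listed at 0, and 29.1 FPKM in DTA) and Ccl5 (0.0777 and 18.4). Both reached the floor in DTA alone, so neither could be called lower. Ccl7 (4.31 FPKM), Ccl12 (3.47), Ccl4 (1.99) and Ccl3 (1.12) were listed at 0 in the day 5 control and remained under the floor. Of 18 CXC and CX3C genes 7 were at the floor and 5 were higher. Among these were Cxcl10 (0 and 35.6 FPKM), Cxcl1 (0 and 14.8), Cxcl2 (0 and 6.79) and Cxcl16 (4.37 and 10.2, with 0.85 under median ratio scaling). The receptors Cxcr2 (0.0416 FPKM in DTA) and Cxcr3 (0) on neutrophils and T cells were near 0, and the neuronal chemokine Cx3cl1 stood at 41.3 and 38.9.

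Phagocytosis and lysosome genes were higher in 16 of 39 cases (median 0.90). Ctsd, cathepsin D, stood at 133 and 282 FPKM (0.84 under median ratio scaling), Lamp2 at 18.5 and 50.4, Cd63 at 19.1 and 60.8, Spp1, osteopontin, at 7.88 and 25.9, and Lgals3, galectin 3, at 0.477 and 7.61. The phagocytic receptor Axl was higher (2.86 and 9.09 FPKM), and its relatives Mertk (2.34 and 1.84) and Tyro3 (4.503 and 4.05) were not called. Bridging molecules were not higher either, with Gas6 at 61.7 and 42.2 FPKM and Mfge8 at 133 and 128. Of 29 complement genes 7 were higher: the 3 chains of C1q, C3 (0.487 and 12.1 FPKM), C4b (2.05 and 10.6), Cfb (1.16 and 5.06; 1.32 and under the floor with median ratio scaling) and the inhibitor Serping1 (4.29 and 29.05). Genes of the terminal attack complex such as C6 (0.0119 FPKM in DTA) and C8g (0.150) were near 0, and the regulator Cd59a (13.3 and 11.1) had no call.

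Targets of p53 were higher in 10 of 30 cases (median 0.68). Cdkn1a, the cell cycle inhibitor p21, stood at 3.65 and 50.8 FPKM, Ccng1 at 22.2 and 71.2, Aen, a nuclease of the p53 response, at 5.32 and 28.7, and Phlda3 at 3.41 and 18.4. The death genes Bax (14.1 and 34.3 FPKM; 0.99 under median ratio scaling) and Bbc3, PUMA (0.938 and 5.69), were among them, whereas Pmaip1, NOXA, reached 1.06. Of 14 Gadd45 and growth arrest genes 4 were higher. Gadd45b stood at 4.32 and 73.9 FPKM, Gadd45g at 6.48 and 18.7 (0.87 against the day 1 control) and Gadd45a at 13.7 and 19.2, the last without a call. Of 38 cell death effectors, 19 of them at the floor, 3 were higher, against 6.74% of all genes at the floor. These were Ripk1 (1.62 and 6.66 FPKM), Bax and Mcl1, an antiapoptotic relative of Bcl2 (19.5 and 44.6, with 0.91 under median ratio scaling). Xiap, the caspase inhibitor, was lower (71.95 and 35.1 FPKM). Casp8, the initiator caspase of death receptors, stood at 0.244 and 1.01 FPKM without a call. The necroptosis genes Ripk3 (0.169 FPKM in DTA) and Mlkl (0.313) were near 0.

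The integrated stress response slows translation through eIF2 and raises Atf4. Of 35 genes 7 were higher (median 0.49). Atf4 itself (chromosome 15, 80085614 to 80087971 in mm9) stood at 107, 105 and 515 FPKM. Ppp1r15a, which restarts translation, stood at 7.81 and 36.8 FPKM, Eif2ak3, the kinase PERK, at 8.76 and 25.4, and Nupr1 at 5.12 and 31.3. Atf3 was also higher, as given above, and so was Aldh18a1, a proline synthesis enzyme (6.07 and 14.5 FPKM; 0.91 under median ratio scaling). Other Atf4 targets had no call: Asns had 9.46 and 19.7 FPKM (0.99), Ddit3, CHOP, 41.2 and 81.02 (0.96), Trib3 2.25 and 2.05 and Chac1 0.7096 and 0.871. The unfolded protein response of the endoplasmic reticulum gave no call among 20, with Hspa5, BiP, at 96.6 and 107 FPKM, and its median of 0.14 turned to -0.061 under median ratio scaling. Among 18 heat shock genes the single call was Cryaa, which is also a lens gene; Hspa1a stood at 20.1 and 12.1 FPKM and Hspa8 at 613 and 420.2.

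Metal and redox genes were higher in 6 of 37 cases. The metallothioneins Mt1 (77.2 and 269 FPKM) and Mt2 (33.1 and 197), which bind zinc and copper, were higher, and Mt3, the neuronal form, was not (27.5 and 25.2). Hmox1, which breaks down heme, stood at 1.32 and 11.7 FPKM. Hmox1 is a target of Nfe2l2, which was itself higher (8.44 and 19.7 FPKM; 0.90 under median ratio scaling). Other targets had no call, with Nqo1 at 1.83 and 1.65 FPKM, Srxn1 at 27.9 and 24.7 and Gclm at 10.01 and 16.9. Trf, transferrin, was higher against the day 5 control (43.5 and 97.0 FPKM) but not against the day 1 control, which had 70.99.

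Proliferation genes stayed low. Of 48 cell cycle and replication genes 1 was higher, Ccnd3 (18.5 and 39.8 FPKM; 0.83 under median ratio scaling). The list median was 0.56 and 45 members lay above 0, though many stayed under 5 FPKM in both libraries: Mki67, the proliferation antigen, was listed at 0 and 0.647, Top2a at 0.00509 and 0.775, Ccnb2 at 0.267 and 2.71 and Mcm6 at 1.196 and 4.905. Progenitor and Notch genes had no call among 41, and their median of 0.035 turned to -0.10 under median ratio scaling. Hes1, a Notch effector, stood at 6.83 and 6.45 FPKM, Notch1 at 4.67 and 6.93, and Nes, nestin, at 1.02 and 3.53. Histone H4 genes were higher in 10 of 13 cases, a family picked after its values were seen, while of the H2A, H2B and H3 genes none was called. These genes are close copies and their transcripts mostly lack a poly(A) tail.

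Wwtr1, the YAP partner TAZ, stood at 3.31 and 14.2 FPKM and the target Cyr61 at 0.951 and 7.81, while Yap1 (4.44 and 4.31) and the target Ctgf (7.24 and 7.28) had no call; 5 of 15 genes of that list were higher. Timp1, an inhibitor of metalloproteinases, was the single call among 31 genes of its list, at 0.484 and 32.5 FPKM. The proteases themselves were not called, with Mmp14 at 4.52 and 5.81 FPKM, Mmp2 at 2.66 and 4.28 and Mmp3 at 0 and 0.0686. Matrix genes were higher in 3 of 41 cases, and only 6 of the 41 were at the floor, where 6.74% of all genes were higher. The higher ones were Spp1, Col4a1 (3.996 and 11.6 FPKM) and Fn1, fibronectin (5.79 and 13.4, with 0.87 under median ratio scaling). Endothelial and pericyte genes gave 0 calls among 32, with Cldn5 at 5.61 and 7.05 FPKM and Pecam1 as above.

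Inner retinal neurons had few calls. Bipolar genes had no call among 24 (median -0.036), with Grm6, the receptor of ON bipolar cells, at 30.9 and 27.6 FPKM and Prkca, a rod bipolar marker, at 40.6 and 33.8. Amacrine genes had none among 24, 4 of which lay above 0 (median -0.28); Gad1, which makes GABA, stood at 72.5 and 59.04 FPKM and Slc6a9, the glycine transporter, at 64.4 and 46.6. Ganglion cell genes had 2 calls among 25, Jun and Atf3, which are injury-induced and not specific to these cells. Tubb3 stood at 64.3 and 63.4 FPKM, Thy1 at 93.5 and 77.2 and the axon growth gene Sprr1a at 0 and 0.4798. In the horizontal cell list Sept4 stood at 66.5 and 36.9 FPKM without a call, and the single call was Vim. Under median ratio scaling the medians were -0.26 for bipolar, -0.47 for amacrine, -0.26 for ganglion and -0.41 for horizontal cell genes. The unscaled medians can be read beside that of all genes, 0.063, or of genes at the floor, 0.26.

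Among metabolic lists, glycolysis genes lay below control in most cases: 4 of 27 were above 0 and the median was -0.25. Photoreceptors are known to ferment most of their glucose to lactate. The calls were Glul and Slc16a1, the lactate transporter MCT1 (51.5 and 17.3 FPKM). Pkm2, pyruvate kinase, stood at 1221 and 810.1 FPKM, Aldoa, aldolase, at 1257 and 865, Eno1, enolase, at 303 and 191 and Ldha at 455 and 383, all without a call. Oxidative phosphorylation gave no call in 51 genes, and its median of 0.19 turned to -0.049 under median ratio scaling. Cytosolic ribosomal protein genes gave none in 53, with a median of 0.037 that turned to -0.21. Genes of cholesterol and lipid synthesis had a median of -0.19 and no call.

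Clock genes were higher in 5 of 17 cases (median 0.79). Nr1d1, REV-ERB alpha (chromosome 11, 98629249 to 98636556 in mm9), stood at 102, 112 and 438 FPKM, Bhlhe41 at 32.3, 31.1 and 90.4, and Cry1 at 16.9, 13.995 and 38.4. For each the controls lie close together and DTA above. Per2 (5.58 and 12.01 FPKM), Dbp (73.95 and 145), Nr1d2 (39.9 and 80.3) and Arntl (24.3 and 42.8) lay above 0 without a call, and Rora (-0.29) below. The hour of tissue collection is not given in the labels and its part was not tested.

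The driver and the target of the toxin were both measured. Msi1 (chromosome 5, 115879694 to 115904211 in mm9) stood at 129, 89.99 and 47.9 FPKM, a difference of -0.89 that was not called and that reached -1.14 under median ratio scaling. Only the DTA mice carried the Msi1-CreERT2 allele, and its part in this difference cannot be told apart from that of the toxin. Msi2, its relative, stood at 53.8 and 50.1 FPKM. Eef2, the elongation factor that the toxin modifies, stood at 369 and 339 FPKM, and none of the diphthamide synthesis genes Dph1, Dph2, Dph3 and Dph5 was called. Their differences ran from 0.16 (Dph1) to 0.72 (Dph2). The toxin transgene itself was not analysed here.

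Some higher genes also followed each other on the chromosomes (build mm9) when only genes at the floor were placed in order. A gene under 5 FPKM in control, such as Gbp2 or Tap1, enters that order only by being higher, so no lower run can hold it. Runs of at least 4 higher genes with at most 1 other gene at the floor between them numbered 9, and no such run was found for lower genes, which are 1.77% of genes at the floor against 6.74% for higher ones. On chromosome 17, 34248964 to 34353266, Brd2, Psmb9, Tap1, Psmb8 and Tap2 were all higher; on chromosome 3, 142159898 to 142300972, Gbp5, Gbp7, Gbp3 and Gbp2; and on chromosome 19, 34365149 to 34724499, Fas, Ifit2, Ifit3 and Ifit1 with I830012O16Rik. A run on chromosome 3, 90318682 to 93368567, held the calcium-binding S100 genes S100a13, S100a4, S100a6, S100a11 and S100a10, of which S100a6 stood at 4.64 and 88.95 FPKM. Chromosome 6, 48783811 to 49034716, held Tmem176b, Tmem176a and Gpnmb, and chromosome 3, 37207549 to 37478017, held Cetn4, Fgf2, Nudt6 and Spata5. By chromosome, the share of genes at the floor that were higher was highest on chromosome 3 (9.94%) and lowest on X (2.83%) among chromosomes with over 100 such genes.

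Higher genes outside all lists that reached 100 FPKM or more in DTA were picked after their values were seen. Arl6, a small GTPase that works with the ciliary BBSome, stood at 47.03, 39.4 and 198 FPKM, with the controls close together and DTA several-fold above. Agtpbp1, which shortens the glutamate tails of tubulin, stood at 35.1 and 134 FPKM, Tnpo1, a nuclear import receptor, at 52.3 and 174, and Nme2, a nucleoside diphosphate kinase, at 26.02 and 107. H3f3b, which encodes the replication-independent histone H3.3, was the most abundant of them (258 and 565 FPKM). H1foo, an oocyte linker histone by name, was among the 25 largest higher differences at 0.05599 and 13.8 FPKM.

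Over all photoreceptor lists together, 31 of 120 distinct genes were lower and 4 higher, and the share lower went with the level in the day 5 control. That control value also enters the difference, which by itself favours lower values at high levels. Grouping by the day 1 control was not tested. Of the 8 genes at 1000 FPKM or more 6 were lower, with a median of -1.62. At 200 FPKM or more it was 16 of 34 (-0.86). Under 50 FPKM 3 of 53 were lower and the median was 0.053. Sag, Gngt1 and Pde6a are abundant genes that were not called, as given above.

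Lens transcripts differed between all libraries. Of 20 lens genes 8 were called lower in DTA (median -2.23), and the same list had a median of -2.68 between the controls, where 17 passed the size and floor. Summed lens FPKM was 2524, 338 and 21.02. The 8 were the crystallin genes Cryaa, Cryba1, Cryba2, Cryba4, Crybb2, Crygb, Crygc and Crygs, Cryaa with 604, 105 and 6.34 FPKM among them. The lens adjoins the retina, and how much of it was carried over at dissection was not tested. Pigment epithelium genes showed the same order, with Rpe65 at 15.96, 2.69 and 0.516 FPKM and Rgr at 48.7, 10.1 and 3.74; neither was called. In the list of visual cycle and pigment epithelium genes 1 was lower, Rlbp1, which Müller glia also express. Genes of corneal, iris and muscle tissue had no call, and Krt14 and Tnnt3 were listed at 0 in both day 5 libraries.

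**Figure D5:**
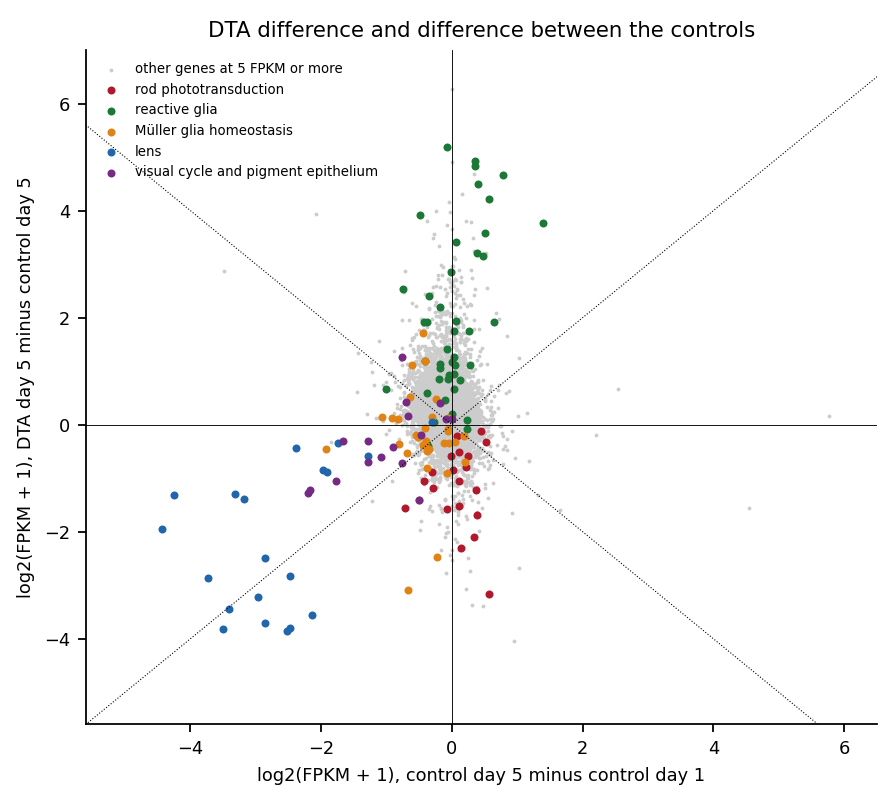
Each point is 1 gene, with its difference between the day 5 and day 1 controls (x axis) and between day 5 DTA and the day 5 control (y axis), both of log2(FPKM + 1); small RNA genes are left out, grey points are genes at 5 FPKM or more and coloured points are the members of the named lists. A gene is called only above and below the dotted diagonals; lens genes spread to the lower left, with a list median of -2.68 on the x axis, while rod and reactive glia genes spread along the y axis.

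Transcript length and base composition were compared with the differences over 9375 genes (94.7% of those at the floor). DTA minus control had Spearman's rho of -0.10 with length and -0.069 with GC content across genes, while the difference between the controls had 0.49 with GC content. All genes share the same 2 libraries, so these values describe the libraries. Of genes in the lowest 20% by length 8.32% were higher, and of those in the highest 20% 2.88%. Over 67 genes of the rod, outer segment, photoreceptor transcription factor and cone lists the values for DTA minus control were 0.20 and -0.10. These are members at the floor with a known length, and the ribbon synapse and cilium lists were not used.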

How the data were processed

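RNA was taken from whole mouse retinas, extracted with Sepazol and prepared with an Illumina mRNA kit, per the labels' protocols. The authors deposited gene tables of FPKM with lower and upper bounds for each library; Cufflinks 2.1.1, bcl2fastq 1.8.4, CASAVA 1.8.2 and the build mm9 are listed in the submitters' processing notes. The aligner and the gene annotation were not given in the sources used here. Genes without a usable estimate in a library have no FPKM there and were left out of the comparison. FPKM was summed over loci of a symbol, and differences were taken on log2(FPKM + 1) with Python 3.11.15, pandas 2.3.3, numpy 2.4.6 and matplotlib 3.10.9. With 1 library in a group there is no test, and calls use the size rule given in the report. The rule was also run on simulated libraries with a fixed spread and no shift between libraries, which cannot show its error rate here. The members and the 58 gene lists were chosen with earlier results of these data known. Genes could be named by rule from these: the 25 largest differences each way, up to 8 largest, the 2 most abundant and the 2 nearest 0 of each list, and genes of runs along a chromosome. The 25 largest each way leave out small RNA genes and genes with clone or model names. Any other gene named was chosen after its values were seen, as were the 14 promoters printed. Alternatives changed the pseudocount, the scaling, the control and the floor. The comparison with transcript length and GC content was added after seeing the data. Some genes measured in these libraries are not reported here.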

Additional observations from a re-analysis of the deposited data

How the results depend on the processing

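The limits are 1 library per group, an unknown number of mice per library and no error between mice; the day 1 control also differs in lens and sex-linked transcripts. No paired analysis was possible because each group has 1 library. The number of genes higher was 350 with a pseudocount of 5, 424 under median ratio scaling and 432 when libraries were scaled by the sum without abundant genes, against 667. The share of calls that were higher was 62.5% and 63.3% under the 2 scalings. Over all alternatives the number higher ran from 350 to 928 and the number lower from 122 to 254. The median of the unfolded protein response list was -0.0609 and -0.0542 under the 2 scalings; against the day 1 control that of MAP kinase feedback was -0.0507 and that of red blood cell genes -0.168. Of 563 named genes 34 lost their call with a pseudocount of 5, among them Axl, Bbc3, Cebpb, Col4a1, Cx3cr1, Gpnmb, Irf8, Msn, Psmb9, Ripk1, Rpgrip1, Tnfrsf1a, Tubb6 and Xiap. Median ratio scaling ended 18 calls and added 10, and the day 1 control as reference ended 20 and added 21. Leaving out the lens list, chosen after seeing the data, gave 667 higher and 167 lower.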
